A study of Drosophila melanogaster with 2 samples.

Results

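The 10 genes described here belong to the JAK/STAT pathway of Drosophila melanogaster. They are the ligand genes upd1, upd2 and upd3, the receptor gene dome, the kinase gene hop, the transcription factor gene Stat92E, and the negative regulator genes Socs36E, Socs44A, Su(var)2-10 and Ptp61F. They were chosen as known components of the pathway and found by symbol in the platform annotation, with older symbols traced by gene ID. The choice was made with earlier results of these data known. Of the 10 genes, 7 were read by 10 probe sets, among 10843 genes named on the array. A probe set is a group of short oligonucleotides that together give 1 signal. The genes dome, Stat92E and Ptp61F had 2 probe sets each and the other 4 had 1 each. The genes upd3, hop and Socs36E are named by no probe set of the annotation used and were not analysed here.

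RNA of 2 genotypes was compared, each on 1 array. The tdf array holds RNA of homozygous mutants of tdf, a gene now called apontic (apt) that encodes a DNA-binding transcription factor, and the homozygotes were recognised with a CyO balancer chromosome that carries act-GFP. The yw array holds RNA of embryos of a yw stock. Embryos of both genotypes were kept for 16 h after egg laying at 25 °C. The labels do not state the allele of tdf, the number of embryos or the length of the egg collection. The yw embryos came from another stock, so the effect of tdf and of the rest of the genetic background cannot be told apart. With 1 array per genotype there is no replicate error, so each value is a single measurement, no test was possible and the fold differences below are sizes only.

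In this pathway a secreted Unpaired ligand binds the receptor Domeless, the receptor-bound kinase Hopscotch phosphorylates Domeless and the transcription factor Stat92E, and phosphorylated Stat92E enters the nucleus and activates its targets. In the fly embryo the pathway is known for its part in segmentation and in the shaping of the trachea, the posterior spiracles and the hindgut. Maternal supply of several components is also known. SOCS proteins, the PIAS protein Su(var)2-10 and the phosphatase Ptp61F limit the signal at different steps. Outside the embryo, Apontic is known to restrain STAT activity among the follicle cells of the ovary, where border cells form.

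The signals are in the linear units of MAS5, the Affymetrix summary of a probe set, and a signal below 97.3 was treated as too dim to measure. This floor is the 40th percentile of all gene signals of the 2 arrays. Dimmer signals were set to the floor when log2 ratios of tdf over yw were formed. Where 1 of the 2 signals was dimmer, the ratio is a bound, written as "at least". Of 10843 genes, 7639 were at or above the floor on 1 array or both and are called measured. Their median log2 ratio was 0.03. The targeted gene apt had a signal of 1051 on the tdf array and 979 on the yw array, a log2 ratio of 0.10. The apt probe set does not check the label, since the labels do not state where the lesion lies, and "the tdf array" below means the array labelled so. Log2 ratios of single probe sets had an SD of 0.53 around the mean ratio of their gene. It was measured over 278 genes with more than 1 probe set above the floor on both arrays. This spread lies within the arrays and holds no variation between embryo collections. Poly(A) control transcripts, added to the RNA before labelling, had a median log2 ratio of -0.91 over the 6 of 12 above the floor on both arrays. The 3' to 5' signal ratio, which is larger in less intact RNA, was read from 4 control transcripts. It was larger on the tdf array for 18S rRNA (32.2, against 14.9 on the yw array), actin (52.3 against 32.7) and eIF-4a (56.6 against 45.5). For GAPDH it was smaller on the tdf array (17.3 against 22.8). The part of RNA quality in the ratios below was not tested.

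Pathway genes above the floor had lower signals on the tdf array. The PIAS gene Su(var)2-10 was at least 4.14-fold lower, the phosphatase gene Ptp61F 3.14-fold lower and the receptor gene dome 2.76-fold lower, while Stat92E was 1.62-fold lower and Socs44A at least 1.63-fold lower. The signals of both ligand genes on the array, upd1 and upd2, were below the floor in both genotypes. Thus 3 of 5 measured pathway genes were at least 2-fold lower, against 6.19% of the 7639 measured genes. No measured pathway gene was at least 2-fold higher, against 3.60% of all measured genes. The median log2 ratio of the 5 measured pathway genes was -1.46. Su(var)2-10 and Socs44A were measured through the yw array alone, so a lower ratio was the only one they could have. The 3 genes above the floor on both arrays, dome, Stat92E and Ptp61F, are free of that limit and also had a median of -1.46. Of these 3, dome and Ptp61F were at least 2-fold lower, against 5.61% of the 6508 genes above the floor on both arrays.

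**Figure D1:**
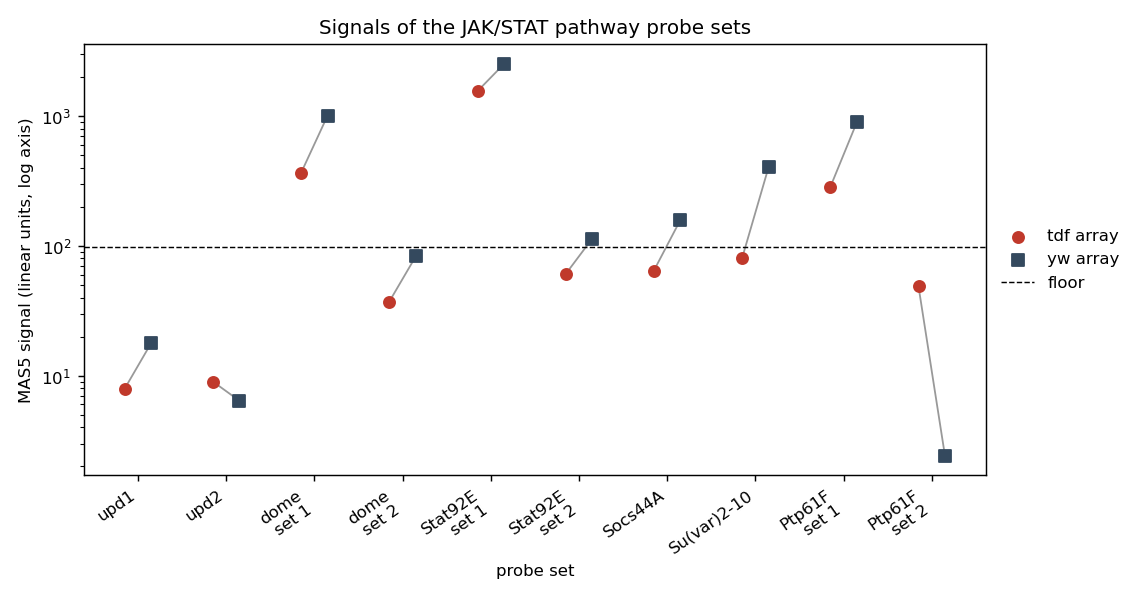
MAS5 signal (log axis) of each of the 10 pathway probe sets on the tdf array (red circles) and the yw array (dark squares), with a line joining the 2 signals of a probe set and a dashed line at the floor of 97.3. The tdf signal is the lower one in 8 probe sets and the higher one in upd2 and in set 2 of Ptp61F, which lie below the floor on both arrays.

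The ligands came out too dim to compare. The probe set of upd1 (143539_at), which encodes the main Unpaired ligand of embryonic segmentation, had a signal of 7.96 on the tdf array and 17.9 on the yw array. The probe set of upd2 (145286_at), a related ligand, had 9.0 on the tdf array and 6.41 on the yw array. Both probe sets are among the dimmest of the array, between the 3.82 and the 14.0 percentile of the 13966 gene probe sets. No fold difference can be drawn from such signals, and a signal below the floor does not show that a transcript is absent. Both genes lie on the X chromosome in the RefSeq gene table, as do upd3, dome and hop.

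The receptor gene dome was lower by the 1 of its 2 probe sets that was bright enough to measure. The brighter one (142932_at) had a signal of 366 on the tdf array and 1008 on the yw array, a log2 ratio of -1.46. The dimmer one (142085_at) had 37.2 on the tdf array and 83.0 on the yw array, both below the floor, so no difference can be drawn from it. On each array taken by itself, the brighter probe set stood at the 69.7 percentile of gene probe sets on the tdf array and at the 85.4 percentile on the yw array, and this ordering uses no scaling between the arrays. Among the 500 measured probe sets nearest to it in mean signal, 2.4% had a log2 ratio as low or lower. By rank, dome was number 170 from the lowest of the 7639 measured genes. In whole embryos, fewer cells that express a gene and less RNA per cell cannot be told apart, here and for each gene below.

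Stat92E, the transcription factor at the end of the pathway, differed by less than dome. Its brighter probe set (142948_at) had 1555 on the tdf array and 2516 on the yw array, a log2 ratio of -0.69. Its dimmer probe set (142088_at) had 60.7 on the tdf array, which is below the floor, and 114 on the yw array, which bounds the log2 ratio at -0.22 or lower. The brighter one did not reach 2-fold. The dimmer one was measured through the yw array alone, so whether it reached 2-fold cannot be told. Of the 500 measured probe sets nearest in signal to the brighter one, 7.6% were as low or lower.

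Among the negative regulators, the 3 genes on the array had lower tdf signals by their brighter or only probe set, by different amounts. Of these, Su(var)2-10 and Socs44A were measured through the yw array alone and could only come out lower. Socs44A, a member of the SOCS family of signalling suppressors, had 64.5 on the tdf array and 158 on the yw array (146791_at). Since the tdf signal is below the floor, its log2 ratio is bounded at -0.70 or lower, and whether it reached 2-fold cannot be told. Su(var)2-10, the fly PIAS protein, binds Stat92E and acts as a ligase for the small protein modifier SUMO. Its single probe set (154412_at) had 80.4 on the tdf array and 403 on the yw array, a log2 ratio of -2.05 or lower. This bound is set by the floor and moves with it, so no rank or share of similar probe sets is given for it, nor for Socs44A and the dimmer probe set of Stat92E. The annotation lists 14 RefSeq transcripts of Su(var)2-10, and the files do not tell which of them the probe set reads.

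Ptp61F, a protein tyrosine phosphatase known to act on Hopscotch and Stat92E, was read by 2 probe sets that did not move together. The brighter one (141300_at) had 284 on the tdf array and 892 on the yw array, a log2 ratio of -1.65 and number 116 from the lowest. Of the 500 measured probe sets nearest to it in signal, 2.2% were as low or lower. The other one (147977_at) had 48.7 on the tdf array and 2.42 on the yw array, so it was higher on the tdf array while below the floor on both. The result for Ptp61F therefore rests on the brighter probe set. When the log2 signals of both probe sets were averaged, the yw signal of 2.42 pulled the yw mean below the floor and the log2 ratio of Ptp61F turned to at least 0.27. When each signal was raised to the floor before averaging, the log2 ratio was -0.83, and for the average of the linear signals it was -1.43. The gene has 5 RefSeq transcripts, some known to differ at the end that sets where the protein sits in the cell, and the files do not tell which of them each probe set reads.

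**Figure D2:**
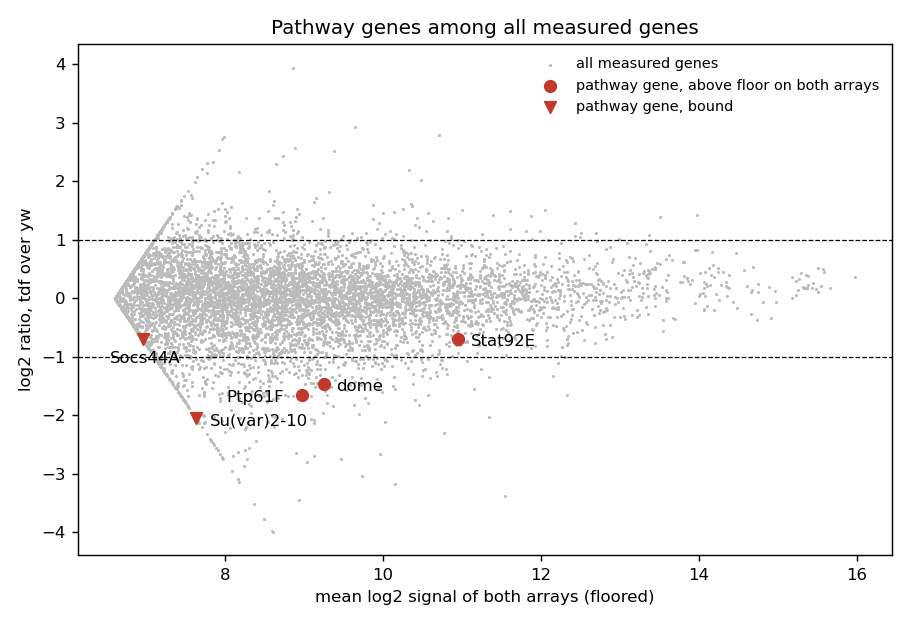
Log2 ratio of tdf over yw against the mean log2 signal of both arrays, with signals raised to the floor, for the 7639 measured genes (grey) and the 5 measured pathway genes (red, downward triangles for bounds), and dashed lines at 2-fold. Su(var)2-10 at -2.05, Ptp61F at -1.65 and dome at -1.46 lie below the lower line, while Stat92E and Socs44A lie between the lines. The straight edges on the left are genes below the floor on 1 array.

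Counted by probe set, 6 of the 10 were measured. Of these 6, 3 were above the floor on both arrays and all 3 had a log2 ratio below 0, against 48.0% of the 6821 probe sets in that state that name 1 gene. The other 3, those of Su(var)2-10 and Socs44A and the dimmer one of Stat92E, were measured through the yw array alone and could only come out lower. At least 2-fold lower were 3 of the 6, that of Su(var)2-10 among them, against 5.96% of the 8165 measured probe sets, and none was at least 2-fold higher, against 3.75%. The 4 remaining probe sets, of upd1, upd2, dome and Ptp61F, were below the floor on both arrays. The probe sets of a gene share its transcripts and are not replicates of the genotype.

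The direction held under centring, quantile normalisation and loess, and the size depended on the floor for the 2 genes near it. Under these 3 scalings the log2 ratio of dome stayed between -1.49 and -1.40 and that of Ptp61F between -1.69 and -1.59. That of Stat92E stayed between -0.73 and -0.69. The size for dome also depended on how its probe sets were combined. Averaging gave -1.44 for linear signals, -1.31 for log2 signals and -0.73 for log2 signals raised to the floor first. With a floor of 43.8, at the 25th percentile, Socs44A had a log2 ratio of -1.29 and became the 4th gene at least 2-fold lower. With that floor 7.46% of 9158 measured genes were at least 2-fold lower. With a floor of 237, at the 60th percentile, Su(var)2-10 was bounded at -0.76 or lower and Socs44A was no longer measured. This left 2 of 4 genes at least 2-fold lower, against 5.03% of 5310 measured genes. Scaling the arrays to the poly(A) controls shifted the median of all measured genes by 0.84 on the log2 scale, to 0.88. On that scale Su(var)2-10 was at -1.42, Ptp61F at -0.74, dome at -0.55, Socs44A at -0.39 and Stat92E at 0.21. Each of these 5 values was lower than the median of 0.88, and Stat92E was above 0 there. This scaling changes all tdf signals by the same factor, so the place of these genes below the median is no separate support. Which of the scalings reflects the RNA content of the embryos was not tested.

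**Figure D3:**
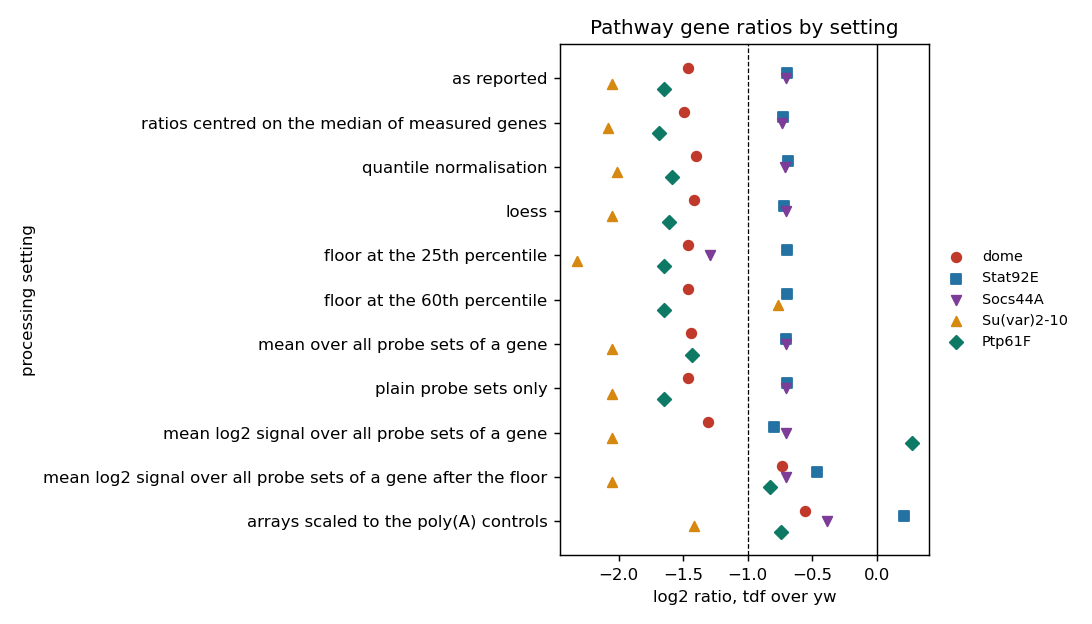
Log2 ratio of tdf over yw of the 5 measured pathway genes under the reported setting (top line) and 10 alternatives, with a solid line at 0 and a dashed line at 2-fold lower. Su(var)2-10 stays at or below -0.76. Ptp61F turns to at least 0.27 where log2 signals of both probe sets are averaged. Stat92E turns to 0.21 where the arrays are scaled to the poly(A) controls.

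Other regulators of the pathway were divided. Of 14 further genes known to act on the pathway, 13 were measured. Of these, 3 were lower by 2-fold or more, against 6.19% of all measured genes, and none was higher by that size, against 3.60%, with a median log2 ratio of -0.17. E(bx), 1 of the 3, was measured through the yw array alone and could only come out lower. CycD, a cyclin reported to bind Stat92E together with its kinase Cdk4, had 383 on the tdf array and 1095 on the yw array, a log2 ratio of -1.52, while Cdk4 had 1011 on the tdf array and 938 on the yw array. E(bx), a subunit of the nucleosome remodelling factor NURF, had 33.7 on the tdf array and 227 on the yw array, at least 2.34-fold lower. A second probe set of E(bx) had 115 on the tdf array and 141 on the yw array, a log2 ratio of -0.30, and its last one was below the floor on both. The gene of the heterochromatin protein HP1, which is known to act with unphosphorylated Stat92E, had 843 on the tdf array and 1817 on the yw array, 2.16-fold lower.

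The remaining regulators differed by less than 2-fold. The brightest of them was ken, a transcriptional repressor of a subset of STAT targets, with 6916 on the tdf array and 6122 on the yw array, a log2 ratio of 0.18. Socs16D, another SOCS family gene, had 141 on the tdf array and 158 on the yw array, a log2 ratio of -0.17. Of the receptor-like gene et, which lies next to dome among the genes on the array and is known to dampen the pathway, the signals were 20.1 on the tdf array and 35.7 on the yw array, below the floor on both. Neither ken nor Socs16D shared the size of the difference seen for Su(var)2-10 or Ptp61F.

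No gene of the SUMO machinery, with which Su(var)2-10 works, had a log2 ratio or bound of 2-fold. Of 8 such genes 6 were measured, and 5 of them, Uba2 as a bound, had a log2 ratio below 0, against 47.6% of all measured genes, with a median of -0.31. The brightest, Sumo (smt3), which encodes the modifier itself, had 4343 on the tdf array and 5996 on the yw array, a log2 ratio of -0.47. Uba2, a subunit of the SUMO activating enzyme, had 91.5 on the tdf array and 194 on the yw array, at least 1.99-fold lower. Since its tdf signal is below the floor, whether Uba2 reached 2-fold cannot be told. Its partner Aos1 had 851 on the tdf array and 840 on the yw array. The other receptor and non-receptor tyrosine phosphatase genes did not follow Ptp61F by size either. Of 8 listed, 6 were measured, 1 of them as a bound. None had a log2 ratio or bound of 2-fold and their median was 0.01. The brightest, Ptpmeg, had 876 on the tdf array and 778 on the yw array.

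Known or proposed targets of STAT in the embryo showed no shared direction. Of 13 genes that act in segmentation, trachea, spiracles or other organs, 10 were measured, and their median log2 ratio was 0.12. At least 2-fold higher were 2 of the 10, against 3.60% of all measured genes, and none was at least 2-fold lower, against 6.19%. Below a log2 ratio of 0 were 5, against 47.6%. The BTB-zinc finger gene chinmo had 549 on the tdf array and 251 on the yw array, a log2 ratio of 1.13, and a second probe set had 186 on the tdf array and 59.5 on the yw array, at least 0.93 on the log2 scale. The homeobox gene ct acts in the posterior spiracles. It had 218 on the tdf array and 84.3 on the yw array, at least 2.24-fold higher. It was measured through the tdf array alone, where the brightest control probe set for a yeast transcript had 223. The brightest of these genes, raw, a regulator of dorsal closure, had 583 on the tdf array and 452 on the yw array. Of the 10 stress and immune targets only TotB and vir-1 were on the array. TotB was below the floor on both arrays, and vir-1, a virus-induced gene, had 467 on the tdf array and 425 on the yw array by its brighter probe set, a log2 ratio of 0.14. The second probe set of vir-1 differed in direction, with 117 on the tdf array and 163 on the yw array, a log2 ratio of -0.48.

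In the regulatory circuit of border cells that holds apt, no gene was 2-fold apart. Of 7 genes listed, apt included, 6 were measured, with a median log2 ratio of 0.13. In this circuit slbo, a C/EBP transcription factor gene activated by STAT and opposed by Apontic, had 884 on the tdf array and 717 on the yw array, a log2 ratio of 0.30. The zinc finger gene jing had 222 on the tdf array and 376 on the yw array by its brighter probe set, a log2 ratio of -0.76. Its other probe set went the opposite way, with 151 on the tdf array and 82.9 on the yw array, a log2 ratio of at least 0.64.

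Most of the measured maternal transcripts were lower on the tdf array as well, several only as bounds. Of 18 maternal and early embryo genes 13 were measured. Lower by 2-fold or more were 7 of these, against 6.19% of all measured genes. None was higher by that size, against 3.60%. The median was -1.52 and the log2 ratios ran from -3.97 to 0.25. Of the 13, 6 were measured through the yw array alone and could not come out higher. The median was -0.43 over the 7 that exceeded the floor in both genotypes, and 2 of these 7, the mitotic cyclin genes CycB and CycB3, were at least 2-fold lower. With the floor of 97.3, the lowest ratios and bounds included those of smg, a regulator of maternal mRNA decay, and swa, a factor in the localisation of bicoid mRNA. Summed over the 18 genes, the signals came to 6859 on the tdf array and 22366 on the yw array. Much of the difference between these sums came from CycB, with 928 on the tdf array and 9664 on the yw array, and CycB3, with 378 and 3423. Below a log2 ratio of 0 were 11 of the 13 measured genes, against 47.6% of all measured genes. The exceptions were gcl, with 3941 on the tdf array and 3467 on the yw array, and exu, with 135 and 114. The defining germ line genes vas, nanos, osk and pgc were below the floor on both arrays. Markers of differentiated late tissues were split. Of the 22 listed 16 were measured, with a median of 0.21. At least 2-fold higher was 1 (the cuticle gene TwdlD), against 3.60% of all measured genes. None was at least 2-fold lower, against 6.19%. The 5 with a log2 ratio below 0 were the neuronal genes elav (-0.15) and nSyb (-0.44), the glial gene repo (-0.42), the hemocyte gene Pxn (-0.23) and the chitin synthase gene kkv (-0.34). The brightest of the late markers, TwdlM, had 57775 on the tdf array and 41034 on the yw array, so both RNAs carried the transcripts of a cuticle-forming embryo. The part that the lower maternal transcripts have in the lower signals of dome, Su(var)2-10 and Ptp61F was not tested.

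**Figure D4:**
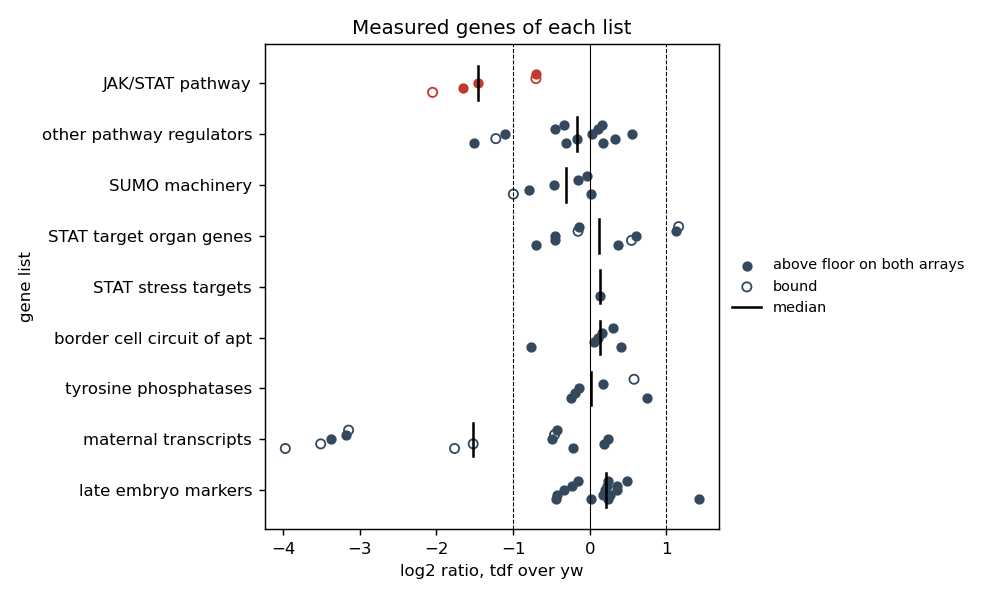
Log2 ratio of tdf over yw of each measured gene in 9 lists, with filled points above the floor on both arrays, open points for bounds, a black bar at the median, a solid line at 0 and dashed lines at 2-fold. The pathway genes (red) have a median of -1.46, also without the bounds. Maternal transcripts have a median of -1.52, but -0.43 without the bounds, and the other 7 lists have medians between -0.31 and 0.21.

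The 3 pathway genes at least 2-fold lower lie on 3 chromosome arms, dome on X, Su(var)2-10 on 2R and Ptp61F on 3L. Su(var)2-10 and Socs44A share the arm 2R with apt. Of the measured genes on each arm, 5.71% on 2R were at least 2-fold lower, and the 5 arms ranged from 5.59% (2L) to 7.34% (X). Around each pathway gene, the 5 nearest genes on each side that are named on the array were examined. Near Ptp61F 4 of 10 were measured, and 2 of these were at least 2-fold lower, both genes of spindle assembly on the same side. The neighbour msd1 had 130 on the tdf array and 764 on the yw array, and msd5 had 97.7 on the tdf array and 287 on the yw array. Near Su(var)2-10 all 10 were measured and 2 were at least 2-fold lower, namely tsu, which encodes a subunit of the exon junction complex, and Hydr1, with a median of -0.44 over the 10. Near dome 1 of 7 measured neighbours was at least 2-fold lower, the nuclear pore assembly gene Elys, and near Stat92E none of 6 was. Near Socs44A, 1 of 10 measured neighbours was at least 2-fold lower and 2 were at least 2-fold higher. On 2R, 3.46% of the measured genes were at least 2-fold higher. Near upd1, upd2, upd3, hop and Socs36E, 3, 2, 2, 3 and 6 neighbours were measured, and none was 2-fold apart. The neighbours named here were singled out after their values were seen.

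The dim end of the arrays limits Su(var)2-10, Socs44A and the dimmer probe sets of dome, Stat92E and Ptp61F. Of 4 control probe sets for yeast transcripts, 3 were above the floor on the tdf array, at 157 to 223, and none on the yw array. The tdf signals of Su(var)2-10 and Socs44A, 80.4 and 64.5, were below those of these 3 controls. On the tdf array ct (218), the second probe set of chinmo (186) and that of jing (151) were below the brightest of them, at 223. The part of unspecific signal in these values was not tested.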

How the data were processed

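Total RNA of tdf and yw embryos was labelled with biotin by in vitro transcription and hybridised to Affymetrix arrays, 1 per genotype, per the labels. The authors deposited linear intensities made with MAS5, per the submitters' processing notes, with 1 value per probe set and array and the MAS5 settings not stated. The trimmed mean signal (2% left out at each end) was 500.1 on both arrays. MAS5 subtracts mismatch signal, which makes dim probe sets noisy.

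Of 14010 probe sets, 44 were controls, 12442 named 1 gene, 327 several and 1197 none. Symbols were updated by gene ID to RefSeq (Release 6 plus ISO1 MT). Of several probe sets of a gene, the one with the highest mean over both arrays stood for it. The floor was the 40th percentile. With 1 array per genotype no test was made, and 2-fold was the size rule. Depth does not apply to arrays, and the number of arrays limits the precision. Steps were tested on simulated arrays.

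The members and lists were chosen with earlier results of these data known. The genes named are the members and, from each list, those at least 2-fold apart (the 4 largest where there are more), the brightest and apt. Other genes were named after their values were seen. These are Cdk4, Socs16D, et, Uba2, Aos1, slbo, jing, TotB, gcl, exu, the late markers with ratios below 0, the undetected germ line genes and the neighbours. Alternatives were centring, quantile normalisation, loess (span 0.3), other floors and limits, and other ways to combine probe sets. Averaging of log2 signals and scaling to poly(A) controls were chosen after the data were examined. Python 3.11.15, numpy 2.4.6, pandas 2.3.3, statsmodels 0.14.6 and matplotlib 3.10.9 were used.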

Additional observations from a re-analysis of the deposited data

How the results depend on the processing

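Centring, quantile normalisation, loess, floors at the 25th and 60th percentile, plain probe sets and mean linear signals of a gene's probe sets were tried. Under these settings 2 to 4 pathway genes were lower by 2-fold or more, against 5.03% to 7.46% of measured genes. None was higher by that size, against 2.24% to 6.63%. With a limit of 1.5-fold, 5 pathway genes were lower by that size, against 15.3% of measured genes. Of these 5, Su(var)2-10 and Socs44A were measured through the yw array alone and could only come out lower. With a limit of 3-fold, 2 genes were lower by that size, Su(var)2-10 among them, against 1.78%. With the mean log2 signal of a gene's probe sets, the median of the pathway genes was -0.80 and Ptp61F turned to at least 0.27. With signals raised to the floor before that mean, 1 gene was at least 2-fold lower, against 5.53% of measured genes. The median of the pathway genes was then -0.73. With arrays scaled to the poly(A) controls, 1 gene was at least 2-fold lower, against 1.35% of measured genes. The median of the pathway genes was -0.55 where that of all measured genes was 0.88. That distance is no separate support, since this scaling changes all tdf signals by the same factor. No paired analysis was possible because each genotype has 1 array, and no replicate could be left out. Signal over background limits Su(var)2-10 and Socs44A, which were below the floor on the tdf array.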
